A study of Mus musculus with 23 samples.

Results

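The comparison set primary mouse aortic endothelial cells kept in plasma of ApoE-Stab1-KO mice (6 arrays) against the same kind of cells kept in plasma of ApoE-KO mice (5 arrays). Arrays were taken by the plasma genotype in the sample labels, which gave 11 of the 23 arrays of the series, and 24704 genes with a symbol were tested. The cells were confluent cultures of primary endothelial cells of mouse aorta, the strain is labelled C57BL/6J, and mouse plasma at 10% took the place of fetal calf serum for 48 h before RNA was isolated. Knockout plasma came from mice on a Western diet, rich in fat and cholesterol, for 8 weeks. Both groups of donors lacked ApoE, and the donors of the ApoE-Stab1-KO plasma lacked Stab1 as well. The genotypes belong to the mice that gave the plasma, while the endothelial cells were a single commercial kind. Plasma of ApoE-Stab2-KO mice (6 arrays) and Wildtype mice (6 arrays) was given to the same cells, and the labels do not give the diet of the Wildtype donors. The labels do not say whether arrays of a group came from separate cultures, separate plasma donors or pooled plasma, so p-values measure no more than the scatter among these arrays, and that scatter may be technical.

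ApoE is the apolipoprotein through which the liver clears remnant lipoproteins, and mice without it carry high plasma cholesterol. Stab1 and its relative Stab2 are large scavenger receptors of sinusoidal endothelium in liver and other organs, and they remove altered lipoproteins, matrix fragments and many plasma proteins from blood. Endothelial cells adjust cholesterol synthesis to what they take up: when the membranes of the endoplasmic reticulum hold enough sterol, INSIG proteins hold back SCAP with the transcription factor SREBP-2, and transcription of the synthesis enzymes declines.

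The cultures carried the markers of endothelium. All 13 endothelial markers were measured, with group means in ApoE-Stab1-KO plasma between 8.91 (Tek) and 12.72 (Cdh5) on the log2 scale of the arrays, where the median gene lay at 4.31. Ptprc, a marker of all leukocytes, lay at 2.91 in ApoE-Stab1-KO plasma and Csf1r, the growth factor receptor of macrophages, at 3.76, while Cd68 of the same list lay at 11.10. The lymphatic markers were split: Prox1, the lymphatic regulator, lay at 3.30, against 12.79 for Lyve1 and 9.59 for Flt4. Of the 10 smooth muscle and pericyte markers 4 lay above the median gene over all arrays, among them Smtn, at 10.28. Pairs of arrays correlated at 0.992 to 0.997 over all genes. ApoE-Stab1-KO replicate 1 stood apart from the others: its mean correlation was 0.994 and it carried a loading of 0.75 on the first principal component, which held 12.4% of the variance.

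Across all genes the cells in ApoE-Stab1-KO plasma and in ApoE-KO plasma differed little, and 1 gene passed the test. That gene was Dhcr7, which encodes the last enzyme of cholesterol synthesis, and it fell in ApoE-Stab1-KO plasma (limma, Benjamini-Hochberg adjusted p = 0.0259). It was 0.00405% of the 24704 genes, and the next smallest adjusted p was 0.141. At an unadjusted p under 0.05 there were 678 lower genes (2.74%) and 699 higher genes (2.83%), in all 1377 against 1235.2 at that threshold with no difference anywhere. In 49 genes (0.198%) all 6 ApoE-Stab1-KO arrays lay below all 5 ApoE-KO arrays, and in 42 (0.17%) all lay above. Differences were small in size: 24 genes differed by more than 0.5 on the log2 scale, 0 by more than 1, and the median standard error of a difference was 0.07.

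**Figure D1:**
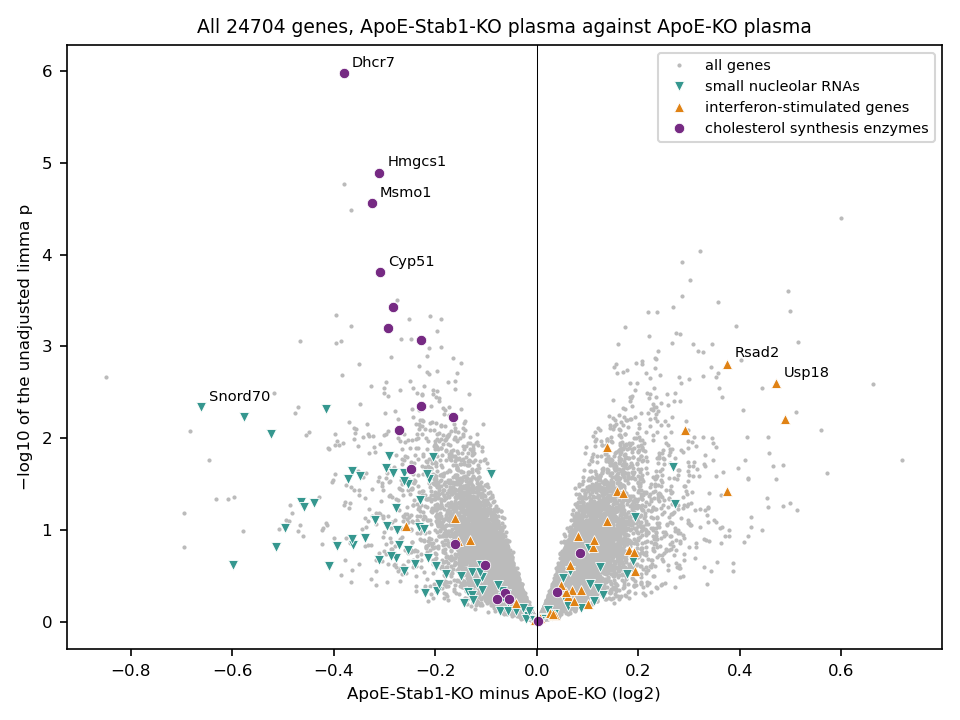
Each of the 24704 genes by its difference between ApoE-Stab1-KO plasma and ApoE-KO plasma (horizontal axis, log2) and by the -log10 of its unadjusted p from limma (vertical axis), with 3 gene lists in colour. Dhcr7 (-0.38) is the highest point, Hmgcs1 (-0.31) the next, and the coloured cholesterol enzymes lie mostly to the left of 0.

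Dhcr7 (Entrez Gene 13360, chromosome 7) encodes 7-dehydrocholesterol reductase, which turns 7-dehydrocholesterol into cholesterol. In ApoE-Stab1-KO plasma its 6 log2 values had a lowest of 7.68, a median of 7.75 and a highest of 7.83, against 8.22, 8.27, 8.06, 8.21 and 7.93 in the 5 ApoE-KO arrays. The groups did not overlap. The means were 7.76 ± 0.05 in ApoE-Stab1-KO plasma (SD, n = 6) and 8.14 ± 0.14 in ApoE-KO plasma (SD, n = 5), a difference of -0.38 ± 0.06 (SE, 95% confidence interval -0.50 to -0.26), or 0.768 times the ApoE-KO level. That separation fixes the two-sided exact permutation p over the 11 arrays at 0.00433, the smallest its 462 arrangements allow, as it does for each of the 49 and 42 genes counted above, so it adds nothing to the fit. Without ApoE-Stab1-KO replicate 1 the difference was -0.37 with an adjusted p of 0.105, and with the spread taken from the 11 arrays alone the adjusted p was 0.544. Leaving out ApoE-Stab1-KO replicate 5 (0.0935) or ApoE-KO replicate 1 (0.0939), 2 (0.191) or 4 (0.0903) also took the adjusted p past 0.05, while the difference stayed between -0.43 and -0.35.

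Most enzymes of its pathway differed in the same direction. Of 22 listed cholesterol synthesis enzymes 19 were measured (the other 3 were not analysed here), 1 of them passed the test, and 18 did not. At an unadjusted p under 0.05, 11 of the 19 (57.9%) were lower in ApoE-Stab1-KO plasma and 0 were higher, where 2.74% and 2.83% of all genes were. Their median difference was -0.23, against 0.00 over all genes, and 16 of 19 differences were negative. The mean log2 value over the 19 enzymes lay between 7.82 and 7.94 in the ApoE-Stab1-KO arrays (7.88 ± 0.04, SD, n = 6), against 7.97 to 8.15 in the ApoE-KO arrays (8.06 ± 0.07, SD, n = 5), so the groups did not overlap. Without ApoE-Stab1-KO replicate 1, 12 of the 19 were lower at that level and the median was -0.19. In a bulk culture, fewer cells of a type and less RNA per cell cannot be told apart.

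**Figure D2:**
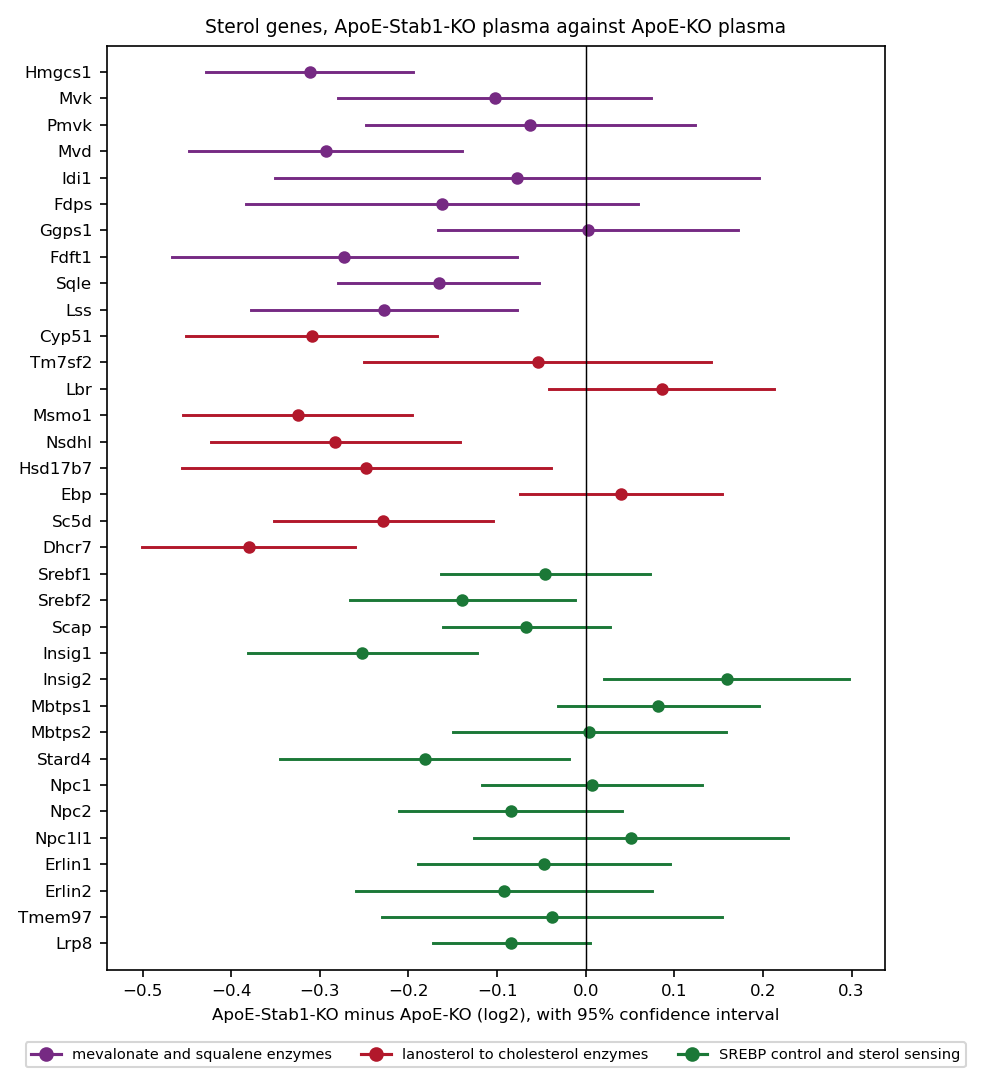
Difference between ApoE-Stab1-KO plasma and ApoE-KO plasma (log2, horizontal axis) of the 19 measured cholesterol synthesis enzymes and the 15 genes of SREBP control, in pathway order from top to bottom, with 95% confidence intervals of the fit. Dhcr7, Msmo1 and Hmgcs1 lie farthest to the left, at -0.38, -0.33 and -0.31, while Lbr (0.09), Ebp (0.04) and Ggps1 (0.00) lie to the right of 0 or on it.

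The pathway opens with Hmgcs1, the cytosolic HMG-CoA synthase. It had a lowest value of 9.39, a median of 9.60 and a highest of 9.68 in ApoE-Stab1-KO plasma, against 10.06, 9.92, 9.79, 9.88 and 9.82 in ApoE-KO plasma. All 6 lay below all 5. The difference of -0.31 ± 0.06 (SE) did not pass the test (limma, adjusted p = 0.141). Among the enzymes that carry mevalonate on to squalene, the decarboxylase Mvd differed by -0.29 ± 0.07, and the kinases Mvk and Pmvk by -0.10 ± 0.09 and -0.06 ± 0.09. The isomerase Idi1 differed by -0.08 ± 0.13, farnesyl diphosphate synthase (Fdps) by -0.16 ± 0.11, and Ggps1, which leads to protein prenylation and away from sterols, by 0.00 ± 0.08. The committed sterol steps followed the opening one in sign: squalene synthase (Fdft1) differed by -0.27 ± 0.09, squalene epoxidase (Sqle) by -0.17 ± 0.05 and lanosterol synthase (Lss) by -0.23 ± 0.07. Fdft1 differed by -0.18 and Mvk by -0.15 without ApoE-Stab1-KO replicate 1. In Lss 4 of 6 ApoE-Stab1-KO arrays lay below the lowest ApoE-KO array.

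Of the 9 measured enzymes from lanosterol to cholesterol, 6 had an unadjusted p under 0.05, all of them lower, and their median difference was -0.25. Msmo1, the sterol C4-methyl oxidase, had a lowest value of 9.77, a median of 9.90 and a highest of 10.11 in ApoE-Stab1-KO plasma, against 10.40, 10.27, 10.25, 10.18 and 10.08 in ApoE-KO plasma. Of the ApoE-Stab1-KO arrays 1 overlapped the ApoE-KO range and 5 lay below it. The difference of -0.33 ± 0.06 did not pass (limma, adjusted p = 0.16). Cyp51, the lanosterol demethylase, ran from 8.07 to 8.37 with a median of 8.20 in ApoE-Stab1-KO plasma, against 8.67, 8.55, 8.52, 8.51 and 8.31 in ApoE-KO plasma (difference -0.31 ± 0.07, adjusted p = 0.425). Again 1 array overlapped. Nsdhl, which oxidises and decarboxylates the C4 position, ran from 8.63 to 8.86 with a median of 8.82, against 9.26, 9.08, 9.10, 9.06 and 8.88 in ApoE-KO plasma (difference -0.28 ± 0.07, adjusted p = 0.547). Its groups did not overlap. Hsd17b7, the 3-ketosterol reductase, differed by -0.25 ± 0.10, and Sc5d, the desaturase that makes 7-dehydrocholesterol, by -0.23 ± 0.06. The reductases Tm7sf2 and Lbr, which act on the same double bond, differed by -0.05 ± 0.09 and 0.09 ± 0.06, and the isomerase Ebp by 0.04 ± 0.06.

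**Figure D3:**
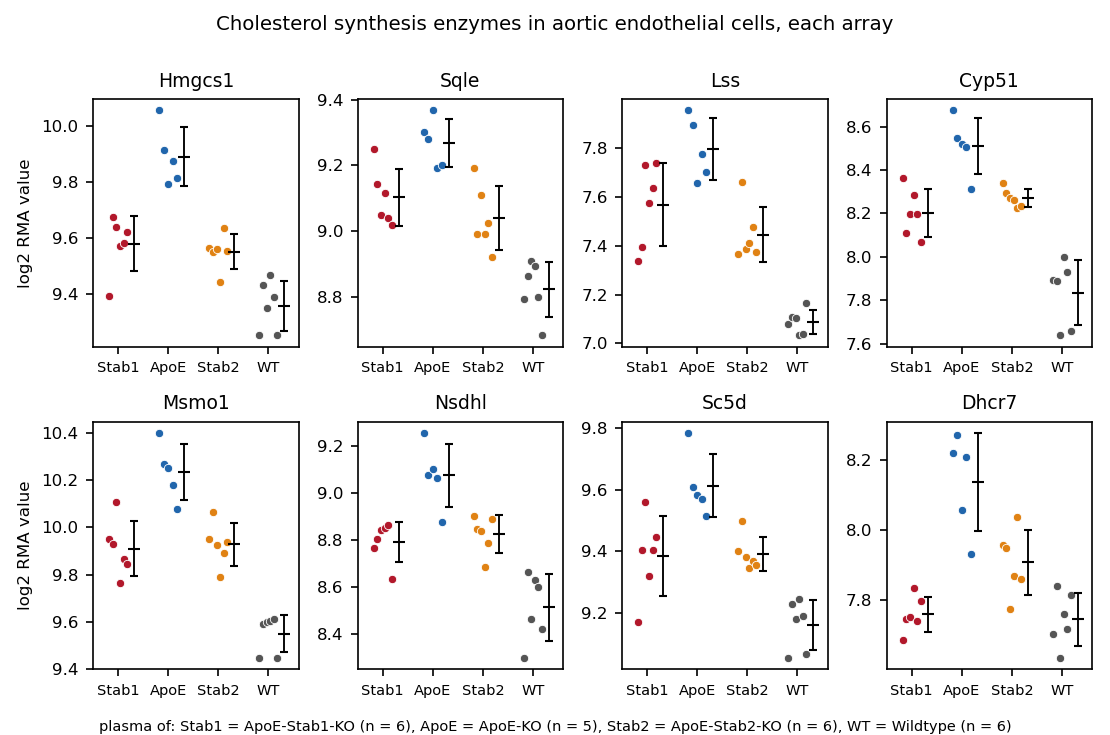
Log2 value (vertical axis of each panel, panels scaled separately) of 8 cholesterol synthesis enzymes in every array, with the mean and SD of each plasma group as black bars. In Dhcr7, Hmgcs1 and Nsdhl all 6 ApoE-Stab1-KO points lie below all 5 ApoE-KO points, and the Wildtype mean is the lowest of the 4 in each panel, though in Dhcr7 it lies close to that of ApoE-Stab1-KO (7.76 for ApoE-Stab1-KO, 7.74 for Wildtype).

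The promoters of the 3 enzymes with the smallest p are shown so that their motifs can be read. Of these 3 genes only Dhcr7 passed the test, and no link between motif and difference was tested. Each window holds 300 bases, from 250 before to 50 after an annotated start, from RefSeq on GRCm38.p6. Capitals mark the CCAAT box (CCAAT, or ATTGG where it lies on the other strand), the element bound by NF-Y, and in Hmgcs1 also the sterol regulatory element (TCACNCCAC), the element bound by SREBP. Dhcr7 has 3 annotated starts, of which the window of the third is shown (chr7:143829964-143830263, plus strand), the windows of the other starts being without a CCAAT box. Hmgcs1 (chr13:119690101-119690400, plus strand) and Msmo1 (chr8:64733529-64733828, minus strand) have 1 each.
Dhcr7: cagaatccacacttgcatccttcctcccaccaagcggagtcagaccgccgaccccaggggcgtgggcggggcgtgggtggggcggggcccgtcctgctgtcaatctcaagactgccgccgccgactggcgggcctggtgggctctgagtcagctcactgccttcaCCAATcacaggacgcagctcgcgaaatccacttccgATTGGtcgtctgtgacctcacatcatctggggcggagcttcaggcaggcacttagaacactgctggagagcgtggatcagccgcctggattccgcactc
Hmgcs1: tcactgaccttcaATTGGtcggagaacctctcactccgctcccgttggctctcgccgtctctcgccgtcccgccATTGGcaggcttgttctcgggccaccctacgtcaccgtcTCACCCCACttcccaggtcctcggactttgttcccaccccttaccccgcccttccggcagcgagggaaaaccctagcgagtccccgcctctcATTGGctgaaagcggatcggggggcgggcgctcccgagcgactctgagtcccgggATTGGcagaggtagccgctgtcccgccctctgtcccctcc
Msmo1: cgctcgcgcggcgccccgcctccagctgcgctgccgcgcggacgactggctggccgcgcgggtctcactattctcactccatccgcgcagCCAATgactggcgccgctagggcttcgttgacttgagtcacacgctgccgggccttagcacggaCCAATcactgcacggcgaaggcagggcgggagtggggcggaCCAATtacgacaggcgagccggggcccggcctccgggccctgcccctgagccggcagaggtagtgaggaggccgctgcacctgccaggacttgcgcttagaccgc
The shown windows hold 2 CCAAT boxes in Dhcr7, 4 in Hmgcs1 and 3 in Msmo1, counted on both strands. Of the 19 enzymes 16 had a window, and 16 of 16 held CCAAT, which 41.1% of 27025 genes with a window hold in at least 1 of theirs. The GC box (CCGCCC, both strands) stood in 14 of 16, against 38.2% of all genes. The E-box CACGTG stood in 3 (Dhcr7, Hsd17b7 and Sc5d), against 8.09%, and the sterol regulatory element in 1 (Hmgcs1), against 1.44%. The E-box of Dhcr7 stood in the window of its second start, which is not shown. These are matches of letters, not measured binding.

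Among the genes that control SREBP fewer had a small p. Of 19 listed genes 15 were measured (the other 4 were not analysed here), and 0 passed the limma test. At an unadjusted p under 0.05, 3 (20%) were lower and 1 (6.67%) higher, against 2.74% and 2.83% of all genes. Without ApoE-Stab1-KO replicate 1 the counts of this list were 1 and 0. Insig1, an anchor of SCAP, had a lowest value of 9.98, a median of 10.24 and a highest of 10.38 in ApoE-Stab1-KO plasma. The ApoE-KO arrays had 10.55, 10.53, 10.36, 10.50 and 10.34. Below the ApoE-KO range lay 5 of the ApoE-Stab1-KO arrays, and 1 lay inside it. The difference was -0.25 ± 0.06 (limma, adjusted p = 0.547). Srebf2, which encodes SREBP-2, differed by -0.14 ± 0.06, and Stard4, which carries cholesterol between membranes, by -0.18 ± 0.08. Insig2, the other anchor of SCAP, differed by 0.16 ± 0.07 in the other direction.

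The remaining members lay close to 0. Srebf1, the gene of the SREBP-1 forms, differed by -0.05 ± 0.06 and the escort protein Scap by -0.07 ± 0.05. The proteases that release SREBP differed by 0.08 ± 0.05 (Mbtps1) and 0.00 ± 0.07 (Mbtps2). The lysosomal exporters differed by 0.01 ± 0.06 (Npc1) and -0.08 ± 0.06 (Npc2), the intestinal absorber Npc1l1 by 0.05 ± 0.09, and the membrane organisers Erlin1 and Erlin2 by -0.05 ± 0.07 and -0.09 ± 0.08. Tmem97, the sigma-2 receptor, differed by -0.04 ± 0.09, and Lrp8, a receptor for ApoE and reelin, by -0.08 ± 0.04. Their median over the 15 genes was -0.05.

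Set against the other plasmas, the enzymes with ApoE-Stab1-KO plasma lay between those with ApoE-KO plasma and those with Wildtype plasma. The mean over the 19 enzymes was 7.88 ± 0.04 with ApoE-Stab1-KO plasma, 7.90 ± 0.04 with ApoE-Stab2-KO plasma and 7.70 ± 0.06 with Wildtype plasma (SD, n = 6 each). Tested directly against ApoE-Stab2-KO plasma, 0 of 19 passed (limma), and the median difference was -0.02. At an unadjusted p under 0.05, 2 of the 19 were lower and 1 higher. In that comparison 1285 of all 24704 genes were lower and 1427 higher. Dhcr7 had 7.76 ± 0.05 with ApoE-Stab1-KO plasma against 7.91 ± 0.09 with ApoE-Stab2-KO plasma, a difference of -0.15 with an adjusted p of 0.31 (limma), so its lower level was not shown to be particular to the Stab1 plasma. Both double knockout groups are set against the same ApoE-KO arrays: Dhcr7 differed from them by -0.38 with ApoE-Stab1-KO plasma and by -0.23 with ApoE-Stab2-KO plasma (adjusted p = 0.233), and Hmgcs1 by -0.31 and by -0.34 (adjusted p = 0.026 for ApoE-Stab2-KO).

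Against Wildtype plasma, 4 of the 19 enzymes were higher with ApoE-Stab1-KO plasma at an adjusted p under 0.05, where 43 of all genes (0.174%) were called higher and 47 (0.19%) lower. They were Lss (0.48, adjusted p = 0.00131), Msmo1 (0.36, 0.00528), Cyp51 (0.37, 0.00898) and Sqle (0.28, 0.013). Of the 19 differences 17 were positive, with a median of 0.21. Dhcr7 differed by 0.01 (adjusted p = 0.959), with 7.76 ± 0.05 in ApoE-Stab1-KO plasma and 7.74 ± 0.08 in Wildtype plasma. Here the donors' genotype cannot be told apart from their diet, which the labels do not give for Wildtype.

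Enzymes of fatty acid synthesis, targets of SREBP-1 in many tissues, were lower in smaller number. All 22 listed genes were measured and 0 passed the limma test, while 6 (27.3%) were lower and 0 higher at an unadjusted p under 0.05 (2.74% and 2.83% of all genes), with a median of -0.06. The malic enzyme Me1, a source of NADPH, differed by -0.27 ± 0.09, and the stearoyl-CoA desaturase Scd1 by -0.24 ± 0.08. The phosphatidate phosphatase Lpin1 differed by -0.21 ± 0.05, the elongase Elovl6 by -0.19 ± 0.07 and the desaturase Fads2 by -0.18 ± 0.06. Me1 differed by -0.16 without ApoE-Stab1-KO replicate 1. In Lpin1, as in 0.198% of all genes, the 6 ApoE-Stab1-KO arrays lay below the 5 ApoE-KO arrays.

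Genes of cholesterol efflux, which the oxysterol receptor LXR induces, gave a mixed picture. Of 16 listed genes 15 were measured, 0 passed the limma test, and the median was 0.02. At an unadjusted p under 0.05, 1 (6.67%) was lower and 2 (13.3%) were higher, against 2.74% and 2.83% of all genes. Abca1, the exporter that loads apolipoprotein A-I, had a lowest value of 8.11, a median of 8.17 and a highest of 8.32 in ApoE-Stab1-KO plasma, against 8.37, 7.89, 7.89, 7.73 and 7.75 in ApoE-KO plasma. The ApoE-Stab1-KO arrays lay above 4 of the ApoE-KO arrays and below ApoE-KO replicate 1. The difference was 0.26 ± 0.08 (limma, adjusted p = 0.737), and without ApoE-KO replicate 1 it was 0.37 with an adjusted p of 0.0109. Abcg1, the exporter to larger HDL, differed by 0.23 ± 0.07. Mylip, a ubiquitin ligase induced by LXR, differed in the other direction, by -0.19 ± 0.05: it ran from 4.03 to 4.09 in ApoE-Stab1-KO plasma, against 4.22, 4.27, 4.19, 4.31 and 4.28 in ApoE-KO plasma. Those levels lie near the median gene of the array. Lpcat3 (0.06 ± 0.05) and Pltp (-0.06 ± 0.06), further LXR targets, lay near 0.

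Genes of lipid uptake and fatty acid oxidation gave no small p. Of 26 listed genes 22 were measured, with 0 passing, and 0 lower and 0 higher at an unadjusted p under 0.05 (limma in each case). The lipid droplet coat Plin2 had 11.96 ± 0.04 in ApoE-Stab1-KO plasma and 12.02 ± 0.10 in ApoE-KO plasma, and the carrier Fabp4 had 12.55 ± 0.07 in ApoE-Stab1-KO plasma and 12.49 ± 0.11 in ApoE-KO plasma. The receptor Pparg differed by 0.08 ± 0.06.

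The cells' own copies of the deleted genes were read as well, which checks nothing about the donors. Stab1 in the cells had a lowest value of 9.90, a median of 10.05 and a highest of 10.18 with ApoE-Stab1-KO plasma, against 9.95, 9.86, 9.88, 10.04 and 9.97 with ApoE-KO plasma (difference 0.09 ± 0.05, limma, adjusted p = 0.912). The groups overlapped. Apoe differed by 0.02 ± 0.09 and Stab2 by -0.10 ± 0.07. Among the secreted proteins tied to the stabilins, Tgfbi differed by -0.06 ± 0.07, Postn by 0.10 ± 0.05 and Reln by -0.07 ± 0.04, and the last 2 lay at 3.19 and 3.37 with ApoE-Stab1-KO plasma, below the median gene. Of 21 measured scavenger receptors 0 passed (limma), 1 was lower (4.76%) and 2 were higher (9.52%) at an unadjusted p under 0.05, against 2.74% and 2.83% of all genes, and 1 was higher without ApoE-Stab1-KO replicate 1. Cd68, a lysosomal glycoprotein also used as a macrophage marker, had 11.10 ± 0.06 in ApoE-Stab1-KO plasma against 11.29 ± 0.09 in ApoE-KO plasma (-0.19 ± 0.05), with no overlap. The mean of the 11 measured macrophage and leukocyte markers was 4.15 ± 0.04 in ApoE-Stab1-KO plasma and 4.17 ± 0.03 in ApoE-KO plasma, and 1 of 11, Cd68 itself, had an unadjusted p under 0.05. The collectin Colec12 differed by 0.22 ± 0.07 and the receptor Scarf1 by 0.09 ± 0.04.

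Leukocyte adhesion genes and NF-kB targets showed 1 gene of 26 measured at an unadjusted p under 0.05, and 0 passed (limma). That was 3.85% lower and 0 higher, against 2.74% and 2.83% of all genes. Without ApoE-Stab1-KO replicate 1 there were 2. In the fit of all arrays it was Ccl2, the monocyte chemokine, with a lowest of 6.89, a median of 7.15 and a highest of 7.43 in ApoE-Stab1-KO plasma, against 7.70, 7.67, 7.78, 7.33 and 7.42 in ApoE-KO plasma. Below the ApoE-KO range lay 4 of the 6. The difference was -0.39 ± 0.10 (limma, adjusted p = 0.56). Tnfaip3, the feedback inhibitor A20, differed by -0.14 ± 0.07 and the subunit Rela by -0.09 ± 0.04.

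Interferon-stimulated genes leaned the other way. Of 36 listed 34 were measured and 0 passed (limma), 8 (23.5%) were higher and 0 lower at an unadjusted p under 0.05 (2.83% and 2.74% of all genes), and the median was 0.08 with 28 of 34 differences positive. Rsad2, the antiviral enzyme viperin, had a lowest value of 6.29, a median of 6.47 and a highest of 7.004 in ApoE-Stab1-KO plasma, against 6.34, 5.92, 6.27, 6.23 and 6.24 in ApoE-KO plasma. Above the ApoE-KO range lay 5 of the 6. The difference was 0.37 ± 0.10 (limma, adjusted p = 0.648). The nucleotide kinase Cmpk2 differed by 0.49 ± 0.16, the feedback protease Usp18 by 0.47 ± 0.14, the GTPase Iigp1 by 0.29 ± 0.10 and Ifi35 by 0.14 ± 0.05. Iigp1 lay below the median gene, at 3.34 to 4.01 in ApoE-Stab1-KO plasma. The list means overlapped, from 6.30 to 6.54 in ApoE-Stab1-KO plasma and from 6.22 to 6.55 in ApoE-KO plasma, and the highest ApoE-KO array, replicate 5, lay above all 6. Without that array 11 were higher, and without ApoE-Stab1-KO replicate 4 or 6, or ApoE-KO replicate 2, 5 were. Among 22 measured complement and MHC genes 2 (9.09%) were higher and 0 lower at that level, against 2.83% and 2.74% of all genes. The 2 were H2-Q4 (0.29 ± 0.13, or 0.18 without ApoE-KO replicate 2) and H2-D1 (0.14 ± 0.05), both class I genes.

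**Figure D4:**
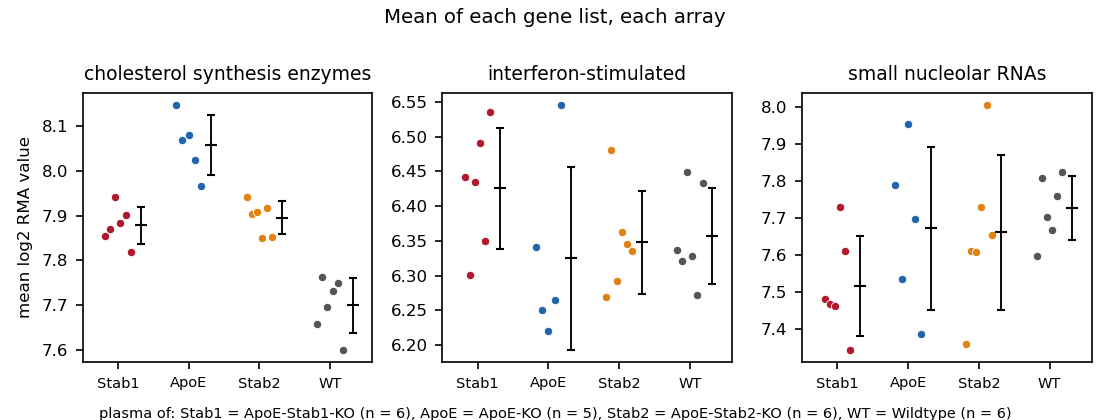
Mean log2 value of the cholesterol synthesis enzymes (19 genes), the interferon-stimulated genes (34) and the small nucleolar RNAs (99) in every array, with the mean and SD of each plasma group as black bars. The enzyme means of ApoE-Stab1-KO arrays (7.82 to 7.94) lie below those of ApoE-KO arrays (7.97 to 8.15), while the other lists overlap between these groups.

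Lists of endothelial function gave few small p-values. Of 31 endothelial identity genes 0 passed (limma), 2 (6.45%) were higher and 0 lower at an unadjusted p under 0.05, against 2.83% and 2.74% of all genes: the transcriptional partner Lmo2 (0.17 ± 0.08) and the lectin Clec14a (0.15 ± 0.07). Without ApoE-Stab1-KO replicate 1 there were 0, and over the alternatives 0 to 5. Vwf, the platelet-binding factor of endothelial granules, differed by 0.33 ± 0.13, with 7.83 to 8.62 in ApoE-Stab1-KO plasma and 7.64 to 8.41 in ApoE-KO plasma. Of 19 measured haemostasis and fibrinolysis genes it was the 1 higher (5.26%) at that level, with 0 lower and a list median of 0.02. Of 20 measured flow-responsive genes 2 (10%) were lower at that level, the factors Klf6 (-0.23 ± 0.07) and Klf4 (-0.19 ± 0.08). The aryl hydrocarbon receptor target Cyp1a1 (0.30 ± 0.13) was the 1 higher (5%). Of the 20 differences 12 were positive, and the median was 0.01. Without ApoE-Stab1-KO replicate 1 there were 3 lower and 0 higher, and 8 differences were positive. Eng, the endothelial TGF-beta co-receptor, differed by 0.08 ± 0.04.

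Matrix and growth genes gave a few small differences, and 0 genes of these lists passed the limma test. At an unadjusted p under 0.05, 2 of 25 TGF-beta and YAP targets (8%) were lower and 1 (4%) higher. Of 16 mesenchymal transition genes 2 (12.5%) were lower, and of 34 extracellular matrix genes 3 (8.82%), with 0 higher in either list. Over all genes 2.74% were lower and 2.83% higher. The list medians were 0.01, -0.02 and -0.01 in that order, and 18 of the 34 matrix differences were negative. The YAP targets Ccn1 and Ccn2 differed by -0.27 ± 0.09 and -0.25 ± 0.11 (Ccn2 by -0.14 without ApoE-KO replicate 3), and the BMP9 receptor Acvrl1 by 0.10 ± 0.04. The matrix glycoprotein Tnc differed by -0.33 ± 0.11 and the repressor Zeb2 by -0.14 ± 0.05. The protease inhibitor Timp1 differed by -0.20 ± 0.07, the gelatinase Mmp9 by -0.20 ± 0.08 and the collagen cross-linker Loxl2 by -0.43 ± 0.20. Mmp9 lay below the median gene, at 3.46 to 3.86 in ApoE-Stab1-KO plasma. Of 28 immediate early genes 4 (14.3%) were lower and 0 higher at an unadjusted p under 0.05 (2.74% and 2.83% of all genes), with a median of -0.07: Myc (-0.22 ± 0.07), Fosl2 (-0.14 ± 0.05), Dusp5 (-0.18 ± 0.07) and Fosb (-0.16 ± 0.07). Without ApoE-KO replicate 1 there were 7, and without ApoE-KO replicate 2 there were 2.

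Most cell cycle genes had a small positive difference. Of 43 measured 36 differences were positive, as were 12390 of the 24704 over all genes. At an unadjusted p under 0.05, 5 (11.6%) were higher and 0 lower, against 2.83% and 2.74% of all genes, 0 passed (limma), and the median was 0.05. The mitotic kinases Aurka and Aurkb differed by 0.22 ± 0.08 and 0.16 ± 0.07, the checkpoint kinase Bub1b by 0.14 ± 0.06, the centromere histone Cenpa by 0.14 ± 0.07 and topoisomerase Top2a by 0.13 ± 0.05. The count of 5 rested on single arrays. Leaving out ApoE-Stab1-KO replicate 3 gave 3 and leaving out replicate 4 of that group gave 8, while among the ApoE-KO arrays the count was 1 when replicate 2 was left out, 2 for replicate 4 and 8 for replicate 5.

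Stress and metabolic lists likewise held 0 genes that passed (limma). Of 33 measured genes of the ER stress and amino acid response 3 (9.09%) were lower and 1 (3.03%) higher at an unadjusted p under 0.05. Over all genes the shares were 2.74% and 2.83%. The median of the list was -0.02, and over the alternatives 2 to 8 of its genes were lower at that level. Nupr1 and Aldh1l2, targets of the amino acid response, differed by -0.30 ± 0.09 and -0.41 ± 0.15, and the cystine carrier Slc7a11 by -0.22 ± 0.08. Of 30 measured hypoxia and glycolysis genes 1 (3.33%) was lower and 3 (10%) were higher at an unadjusted p under 0.05. Of the 30 differences 20 were negative, with a median of -0.01. The lower gene was the demethylase Kdm3a (-0.20 ± 0.06). The higher genes were Car9 (0.20 ± 0.09), Pkm (0.14 ± 0.06) and Pfkfb3 (0.14 ± 0.06). Car9 lay below the median gene, at 3.36 to 3.54 in ApoE-Stab1-KO plasma. Of 17 measured retinoid genes 1 (5.88%) was higher at that level, the receptor Rxra (0.21 ± 0.06). The dehydrogenase Aldh1a7 (-0.35 ± 0.13) was the 1 lower (5.88%), and the median of the list was 0.02. Among 25 lysosomal genes the sialidase Neu1 (-0.15 ± 0.06) had an unadjusted p under 0.05, and 2 genes did without ApoE-Stab1-KO replicate 1. In the fit of all arrays that was 4% lower, against 2.74% of all genes.

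**Figure D5:**
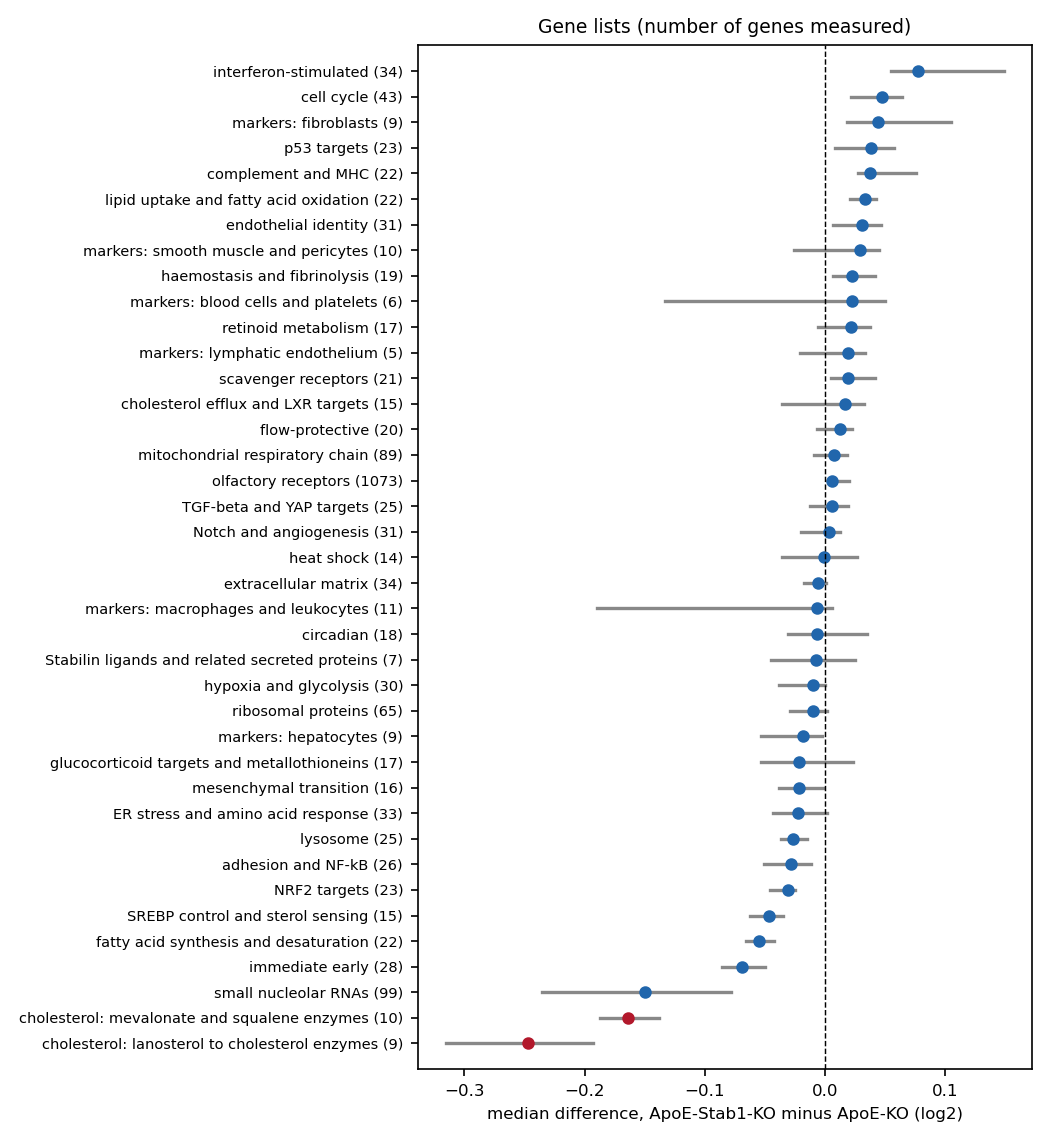
Median difference between ApoE-Stab1-KO plasma and ApoE-KO plasma (log2, horizontal axis) of each gene list, as a point, and its lowest and highest value over the main and 20 alternative analyses, as a bar (19 for the small nucleolar RNAs); the dashed line is the median of all genes (0.00), and red points mark the cholesterol enzymes. The lists of cholesterol enzymes (-0.25 and -0.16) and the small nucleolar RNAs (-0.15) lie farthest to the left, and the interferon-stimulated genes (0.08) farthest to the right.

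Among the genes with the smallest p of each sign were also some outside sterol metabolism, and 0 of these passed (limma). Ptprcap, which associates with the phosphatase CD45 in lymphocytes, had 3.96 ± 0.13 in ApoE-Stab1-KO plasma and 4.34 ± 0.04 in ApoE-KO plasma (-0.38 ± 0.07, adjusted p = 0.141), both near the median gene. The magnesium transporter Nipal1 differed by -0.37 ± 0.07 (adjusted p = 0.16), the immune checkpoint receptor Havcr2 by -0.27 ± 0.07, Cep41 by -0.25 ± 0.06 and Zpr1 by -0.20 ± 0.05. On the higher side stood Ly6f, of the Ly6 surface proteins, with 6.35 ± 0.15 in ApoE-Stab1-KO plasma and 5.85 ± 0.33 in ApoE-KO plasma (0.50 ± 0.12, adjusted p = 0.547). The protease Bace2 differed by 0.36 ± 0.08, the junction protein Cgn by 0.39 ± 0.10, and Aph1b, a subunit of gamma-secretase, by 0.22 ± 0.05. The mitotic regulator Bora differed by 0.35 ± 0.09, Vmn1r232 by 0.32 ± 0.07 and Trdv2-1 by 0.52 ± 0.14, the last 2 lying at 3.41 and 4.47. The other genes of this rank, Jrkl, Lars2, Plin4, Pcp4l1, Wdr76, Gpn3, Ccnq and Mad1l1, differed by 0.17 to 0.29.

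Set directly against ApoE-Stab2-KO plasma, 12 genes (0.0486%) differed with ApoE-Stab1-KO plasma after adjustment (limma, under 0.05), and 2712 reached 0.05 before it. The transcript of Mir1896 differed by the most among the 12, with 3.74 ± 0.13 in ApoE-Stab1-KO plasma and 4.99 ± 0.24 in ApoE-Stab2-KO plasma (-1.25, limma, adjusted p = 0.000694), and its mature sequence is shown with the seed, bases 2 to 8, in capitals (RefSeq, GRCm38.p6, chr13:21445209-21445230, plus strand).
Mir1896: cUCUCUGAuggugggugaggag
In ApoE-KO plasma Mir1896 had 3.98, 3.63, 3.79, 4.04 and 4.79, which overlapped the ApoE-Stab1-KO range of 3.56 to 3.96. Protein-coding genes among the 12 were Ecsit, a mitochondrial complex I assembly factor (-0.53, adjusted p = 0.00554), Cgn (0.52, 0.0269) and Aph1b (0.31, 0.012). Aph1b had 7.08 ± 0.08 in ApoE-Stab1-KO plasma, 6.77 in ApoE-Stab2-KO plasma and 6.86 ± 0.03 in ApoE-KO plasma, and all 6 ApoE-Stab1-KO arrays lay above all 5 of the ApoE-KO arrays.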

How the data were processed

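The 23 arrays measured biotin-labelled cRNA from total RNA of the cultures. The deposited values are log2 values that the authors made with RMA, per the submitters' processing notes, which corrects background, normalizes by quantiles and summarizes probe sets. Neither the version of RMA nor the build of the array annotation is given in the sources used. Sorted values of the arrays differed by at most 0.0019, so each array has almost the same distribution and a change common to every gene would be lost. Arrays have no count depth; their number limits the precision.

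Of 25428 probe sets, those with 1 gene symbol were kept (the brighter where a symbol had more), which left 24704 genes, 19686 of them protein-coding. They were tested with limma 3.58.1 (R 4.3.3; lmFit, eBayes) on the deposited log2 values, with 1 mean per plasma genotype over the 23 arrays (19 residual and 4.19 prior degrees of freedom), no filter, and Benjamini-Hochberg adjustment over all genes. Genes passed at an adjusted p under 0.05. Errors after ± are SD for levels and standard errors of the fit for differences. Dhcr7, Hmgcs1, Msmo1, Ptprcap and Nipal1 also had a two-sided exact permutation test (SciPy 1.17.1), which gave 0.00433 in each but Msmo1 (0.00866). The fit was tested on simulated data.

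The comparison and the 39 gene lists (1994 of 2035 entries measured) were chosen with earlier results of these data known, so they are described by counts and medians, with no set test. Named genes are those that passed, the 15 with the smallest p of each sign among ordinary gene names, all cholesterol and SREBP members, Apoe, Stab1, Stab2, Tgfbi, Postn and Reln, up to 5 members with the smallest p of other lists, and genes that differed from ApoE-Stab2-KO. Levels of Tek, Cdh5, Ptprc, Csf1r, Prox1, Lyve1, Flt4 and Smtn are given as a check of the cells. The labels do not say that replicate numbers pair the arrays, and the main fit did not pair them. Deviations of arrays with the same number correlated at -0.096 to 0.085, against -0.21 to 0.24 for other numbers, which cannot exclude a shared batch. Alternatives were 9 other settings and leaving out each array. Figures were drawn with matplotlib 3.10.9.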

Additional observations from a re-analysis of the deposited data

Results flagged for a closer look

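In 346 groups checked (genes and list means named in the text, in ApoE-Stab1-KO and in ApoE-KO plasma), 19 held 1 array far from the rest of its group by Dixon's criterion, and chance marks about 1 in 20 such groups. In ApoE-Stab1-KO plasma these were Lbr in replicate 2 (8.50, others 8.21 to 8.30), Lpin1 in replicate 4 (7.95, others 8.11 to 8.19), Me1 in replicate 1 (8.02, others 8.49 to 8.75), Cd68 in replicate 2 (10.98, others 11.11 to 11.14), and Iigp1 (4.01), Vwf (7.83), Ly6f (6.05) and Rpl36-ps3 (10.99) in replicate 3. In ApoE-KO plasma they were Abca1 in replicate 1 (8.37, others 7.73 to 7.89), Rsad2 in replicate 2 (5.92), Reln (3.52) and Ccn2 (7.96) in replicate 3, and Bace2 in replicate 5 (6.14).

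Among the list means, ApoE-Stab1-KO replicate 3 lay apart in endothelial identity (9.78), NRF2 targets (9.80) and blood cell markers (4.19), and ApoE-Stab1-KO replicate 4 in scavenger receptors (7.29). ApoE-KO replicate 1 lay apart in mesenchymal transition (7.35) and ApoE-KO replicate 4 in heat shock (7.21). The causes were not tested.

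For 12 genes the direct test between ApoE-Stab1-KO and ApoE-Stab2-KO plasma passed, so their differences from ApoE-KO plasma are not alike in the 2 double knockouts. Differences (ApoE-Stab1-KO minus ApoE-Stab2-KO, log2) were -1.25 for Mir1896, -0.91 for Gm13609, -0.74 for Snord68, -0.69 for Gm34921, -0.68 for Gm16617, -0.66 for 2610020C07Rik, -0.56 for Rpl36-ps3, -0.53 for Ecsit and -0.35 for Gm4540. They were positive for Cgn (0.52), Aph1b (0.31) and A230072E10Rik (0.31). Of the 12, 9 are non-coding transcripts or pseudogenes, and the values of the pseudogenes Rpl36-ps3 and Gm4540 are uncertain, since their probes may also read the parent genes.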

How the results depend on the processing

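Dhcr7 was lower in ApoE-Stab1-KO plasma in the main analysis and in all 20 alternatives, and it passed in 13 of these. It did not pass with the replicate block (-0.38, adjusted p = 0.0675, 0 genes passing) or with the 11 arrays alone (-0.38, 0.544, 0 passing), and leaving out 1 array moved it between -0.43 and -0.35. Leaving out 1 array gave 0 to 2 genes passing: without ApoE-Stab1-KO replicate 2, 3 or 6, Nipal1, Msmo1 or Havcr2 passed beside Dhcr7, and without ApoE-KO replicate 1 only Abca1 did. With trend and robust settings 2 passed, Dhcr7 and Hmgcs1. The median of the cholesterol enzymes stayed between -0.26 and -0.19. Genes at an unadjusted p under 0.05 numbered 806 among genes above the median level (fewer genes tested) and 1190 to 1530 without 1 array. Genes that differed from ApoE-Stab2-KO plasma numbered 21 with trend and robust settings, 2 among protein-coding genes and 8 to 37 without 1 array; against Wildtype there were 151 among genes above the median level and 54 to 124 without 1 array. Differences near 0 changed sign: Mbtps2 with array weights (-0.043) and the replicate block (-0.0053), Npc1 with array weights (-0.022), and without 1 array Ggps1 (-0.032 to 0.062), Mbtps2 (-0.047 to 0.058), Npc1 (-0.044 to 0.027), Npc1l1 (-0.024 to 0.10), Apoe (-0.027 to 0.062), Tm7sf2 (-0.11 to 0.0074) and Tmem97 (-0.074 to 0.0081). Other causes were not tested. The labels name no source shared by arrays of the same replicate number, so what the block adjusts for is not known.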

Other observations

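Small nucleolar RNAs, which guide chemical marks on ribosomal RNA, had mostly negative differences. Of 99 measured 77 differences were negative, and 19 (19.2%) were lower and 1 higher at an unadjusted p under 0.05, against 2.74% and 2.83% of all genes; 0 passed (limma), and the median was -0.15. Snord70 ran from 7.29 to 9.20 with a median of 8.64 in ApoE-Stab1-KO plasma, against 8.95, 9.04, 9.38, 9.29 and 8.97 in ApoE-KO plasma (-0.66 ± 0.21), and without ApoE-Stab1-KO replicate 1, which held its lowest value, the difference was -0.43. Snord42a differed by -0.58 ± 0.19, Snord83b by -0.52 ± 0.18, Snord68 by -0.41 ± 0.13 and Snord55 by -0.29 ± 0.11. The list means overlapped, from 7.34 to 7.73 in ApoE-Stab1-KO plasma and from 7.39 to 7.95 in ApoE-KO plasma. The 19 lower became 9 without ApoE-KO replicate 3, 11 without ApoE-Stab1-KO replicate 3, 12 without ApoE-KO replicate 4 and 28 without ApoE-KO replicate 5.

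Genes of the 65 ribosomal proteins had a median difference of -0.01 with 1 lower and 0 higher at an unadjusted p under 0.05 (3 and 1 without ApoE-Stab1-KO replicate 1), and the 89 genes of the mitochondrial respiratory chain 0.01 with 1 and 1. In the fit of all arrays the lower shares of these lists were 1.54% and 1.12%, and the higher shares 0% and 1.12%. Olfactory receptors, which endothelium is not known for, gave 11 lower (1.03%) and 26 higher (2.42%) of 1073, with a median of 0.01. Over all genes 2.74% were lower and 2.83% higher.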
